A study of Mus musculus with 8 samples.

Results

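Resident-like macrophages of MC38 tumours were examined as cells that carried RNA of Folr2, Cbr2 and Fcrls. MC38 is a mouse colon carcinoma line grown as a tumour. CD45+ immune cells were collected from tumours of wild-type mice, either control or given LNP-Sirpa, and profiled by droplet single-cell RNA sequencing. What the control mice were given, the dose and the time of collection are not in the labels, and the title describes LNP-Sirpa as degrading SIRPα in the tumour. There were 2 control and 2 LNP-Sirpa libraries, all of 1 batch, and whether replicates were separate animals is not stated, so p-values measure the spread between these libraries, which may be technical.

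A cell was counted as resident-like when it held at least 3 unique molecular identifiers (UMIs, each standing for 1 captured RNA molecule) of Folr2, Cbr2 and Fcrls together. It also needed at least 10 UMIs of the complement genes C1qa, C1qb and C1qc, at most 1 of Cd3d, Cd3e and Cd3g, at most 1 of the proliferation genes Mki67, Top2a and Birc5, and at most 3 of the monocyte genes Ly6c2 and Plac8. Of 37757 barcodes, 5659 met the rule, with 2100, 2739, 556 and 264 in control replicates 1 and 2 and LNP-Sirpa replicates 1 and 2. Values of 4 libraries are given in this order throughout. The 8777 cells that passed the same gates but held at most 2 UMIs of the 3 genes are called other C1q macrophages.

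Tissue-resident macrophages are long-lived phagocytes that clear dying cells and debris, take up ligands through scavenger receptors and secrete growth factors, complement and chemokines. In tumours they lie beside macrophages that form from recently arrived monocytes. Folr2, a folate receptor, Cbr2, a carbonyl reductase, and Fcrls, an Fc receptor-like scavenger receptor, mark resident-like macrophages in several tissues, as do the selenium carrier Selenop, the scavenger receptor Stab1 and F13a1, which encodes the A subunit of coagulation factor XIII. SIRPα is the product of Sirpa, a receptor that restrains phagocytosis when it binds CD47 on other cells.

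Resident-like cells were a large population in both control libraries and a small one in both LNP-Sirpa libraries. They made up 28.0% (95% Wilson interval 27.0 to 29.0) and 25.2% (24.3 to 26.0) of control barcodes, and 5.37% (4.95 to 5.82) and 2.93% (2.60 to 3.30) of LNP-Sirpa barcodes. The groups did not overlap, with means of 26.6 ± 1.99% and 4.15 ± 1.73% (SD, n = 2), a difference of 6.40 times. Among C1q macrophages, a base limited to cells that passed the other gates, the shares were 62.0%, 49.2%, 22.4% and 8.79%, again without overlap. Of 5799, 8685, 5675 and 5156 barcodes with at least 10 C1q UMIs, the Cd3 gate left 5371, 7438, 3911 and 4379. The proliferation gate then left 3547, 5713, 3094 and 3440, and the gate on Ly6c2 and Plac8 left 3385, 5569, 2480 and 3002. Barcodes that held more T cell, proliferation or monocyte RNA are thus missing from this base, in numbers that differ between libraries. An exact two-sided permutation test gave p = 0.333 for both shares, the smallest that 2 libraries against 2 allow. Intervals of shares here and below cover counting error only.

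**Figure D1:**
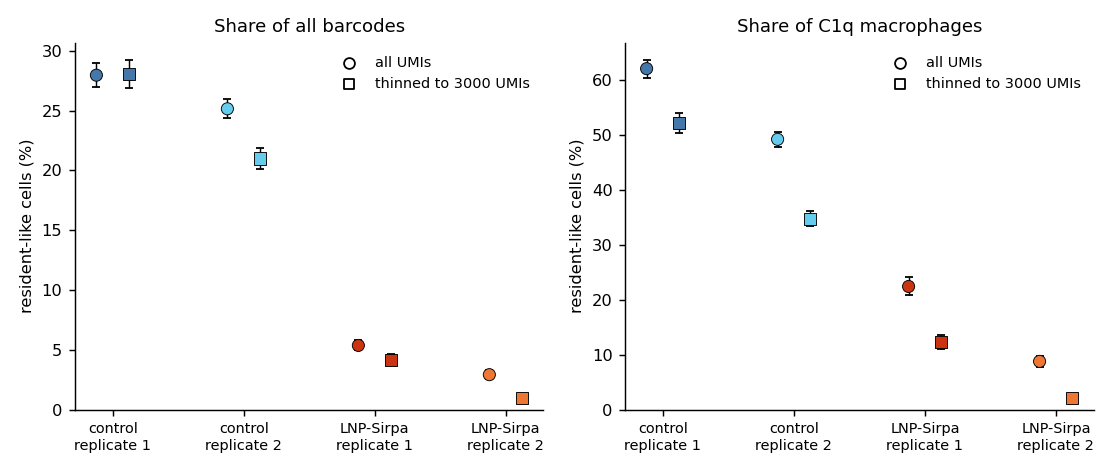
Share of resident-like cells (vertical axis, percent) in each library, among all barcodes (left) and among C1q macrophages (right), from all UMIs (circles) and after thinning cells to 3000 UMIs (squares), with 95% Wilson intervals. Both control libraries sit above both LNP-Sirpa libraries in each panel, at 25.2% or more against 5.37% or less of barcodes without thinning.

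The order of the libraries did not change with depth. Resident-like cells had medians of 7772, 7352, 7969 and 11077 UMIs, against 5054, 5199.5, 5370.5 and 7343 in other C1q macrophages, so a fixed number of UMIs is easier to reach in the deeper cells. When each barcode was thinned to 3000 UMIs before the rule was applied, leaving out 1888, 2638, 2910 and 2402 shallower barcodes, the shares were 28.1%, 21.0%, 4.15% and 0.969% of barcodes. Among C1q macrophages they were 52.2%, 34.7%, 12.3% and 2.09%. Replicate 2 of LNP-Sirpa, which held the deepest cells, had the lowest share both ways.

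Background RNA of the 3 genes was measured in T cells, taken as barcodes with at least 4 Cd3 UMIs and under 10 C1q UMIs, which should lack them. Free RNA and barcodes that held more than 1 cell were not told apart. A sum of at least 3 was reached by 5.76% (95% Wilson interval 2.94 to 10.9), 2.02% (0.983 to 4.12), 0.415% (0.161 to 1.06) and 0.129% (0.0228 to 0.727) of these cells, at median depths of 4092, 4595, 5121 and 4368 UMIs. At least 1 UMI was found in 44.6%, 33.5%, 12.9% and 2.97% of them, and in 87.4%, 77.8%, 49.6% and 25.7% of C1q macrophages. After thinning to 3000 UMIs these became 33.3%, 20.7%, 6.44% and 1.78% of T cells and 74.7%, 63.8%, 37.9% and 16.0% of C1q macrophages. The background thus moved with the share of resident-like cells, and in every library it lay below the level in C1q macrophages. The limit of under 10 C1q UMIs left out T cell barcodes with more macrophage RNA, which favours a lower level in those kept.

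The 3 genes that chose the cells did not contribute equally in each library. Folr2 was found in 65.1%, 62.7%, 63.1% and 81.4% of resident-like cells, Cbr2 in 78.1%, 81.7%, 68.0% and 39.4%, and Fcrls in 97.0%, 91.9%, 85.3% and 66.3%. All 3 genes were present together in 52.4%, 46.7%, 34.5% and 18.6% of the cells. Folr2 stood at 239, 213, 201 and 243 CPM (UMIs scaled to 1000000 in all, summed over the cells of a library), Cbr2 at 439.9, 460.4, 236 and 86.2 CPM and Fcrls at 742, 501, 329 and 170.4 CPM. Cells chosen in LNP-Sirpa replicate 2 therefore rested more on Folr2, which gave 48.7% of the 3 genes' UMIs there against 16.8%, 18.1% and 26.2% elsewhere. These values describe the choice of cells and carry no test.

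**Figure D2:**
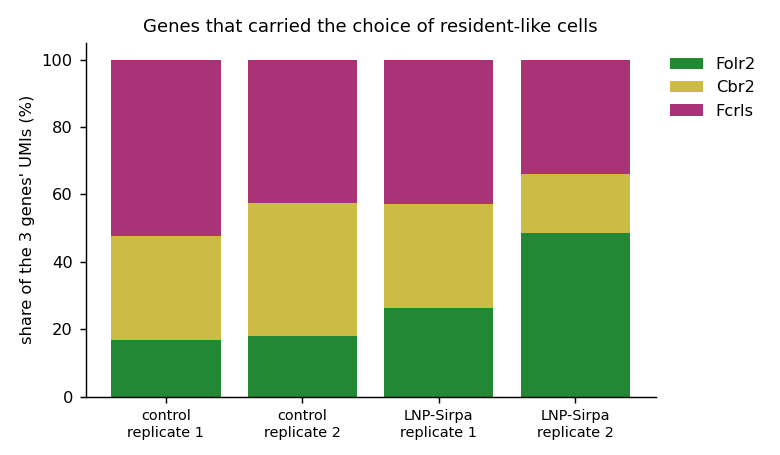
Share of the UMIs of Folr2, Cbr2 and Fcrls (vertical axis, percent of the 3 genes' UMIs) that each gene gave in the resident-like cells of each library (horizontal axis). Fcrls gave the most in 3 libraries and Folr2 the most in LNP-Sirpa replicate 2.

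Marker levels changed gradually across the threshold. The median sum of the 3 genes was 9, 7, 5 and 5 UMIs in the chosen cells. Just inside the threshold, with 3 UMIs, were 288, 457, 122 and 75 cells, and just outside it, with 2 UMIs, 374, 654, 214 and 142 cells. Selenop stood at 308, 581, 203 and 226 CPM just inside and at 217, 405, 231 and 165 CPM just outside, so in LNP-Sirpa replicate 1 the cells just outside had more. Raising the sum from 0 UMIs to 10 or more went with Selenop from 125 to 664 CPM in control replicate 1, 281 to 956 in control replicate 2, 112 to 400.1 in LNP-Sirpa replicate 1 and 87.7 to 344 in LNP-Sirpa replicate 2. Stab1, F13a1 and the mannose receptor gene Mrc1 were also higher at the upper end in each of the 4 libraries. H2-Aa, a chain of MHC class II, was lower there, going from 3339 to 953 CPM in control replicate 1 and from 4698 to 1689 CPM in LNP-Sirpa replicate 2. At a sum of 10 or more, Selenop, Stab1 and F13a1 were each lower in both LNP-Sirpa libraries than in both control libraries, with F13a1 at 924, 801, 490.2 and 408 CPM. Cells with a sum of 10 or more also held the most UMIs, with a median of 9491 against 5408 at a sum of 0 in control replicate 1, where sums of 1 to 3 had medians of 4633.5 to 4871.

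**Figure D3:**
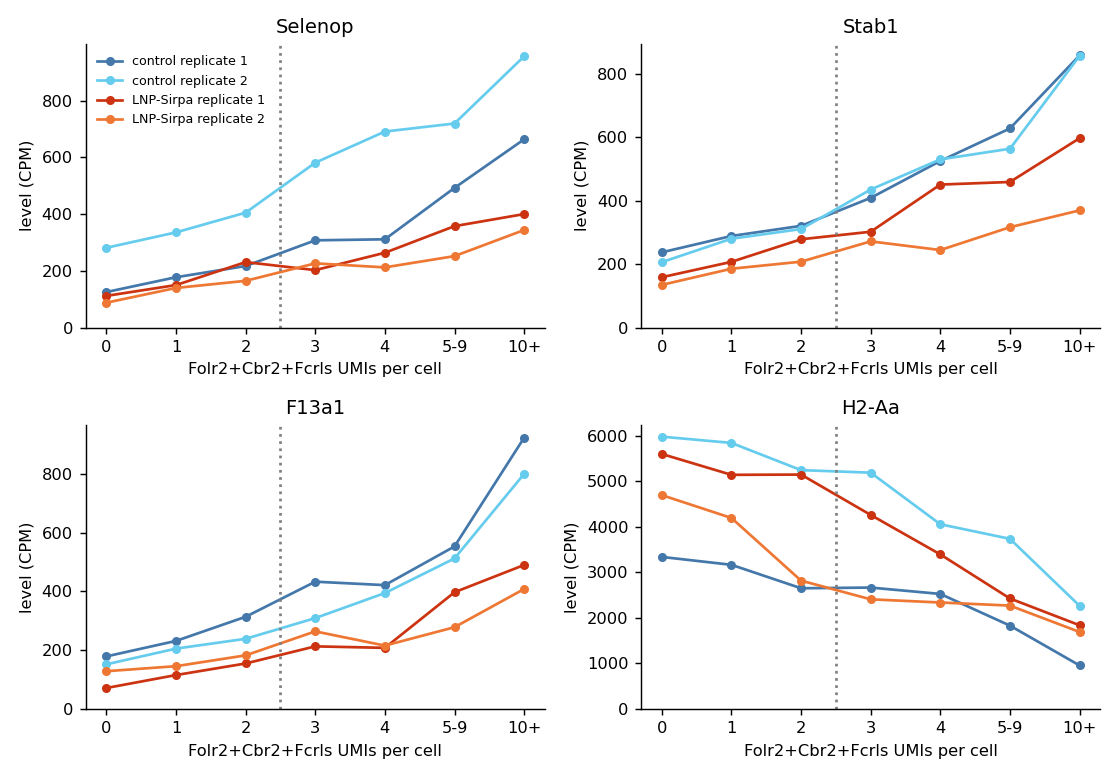
Level of Selenop, Stab1, F13a1 and H2-Aa (vertical axes, CPM) in C1q macrophages grouped by their summed UMIs of Folr2, Cbr2 and Fcrls (horizontal axes), 1 line per library; the dotted line marks the threshold of 3 UMIs. The first 3 genes are higher and H2-Aa is lower at the upper end in all 4 libraries, and no step is seen at the threshold.

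Marker genes that the rule did not use were counted as well. They were chosen with earlier results of these data known, so they are not an independent check of the label. Cells with at least 3 UMIs of Selenop, Stab1 and F13a1 made up 93.7%, 95.5%, 87.4% and 85.6% of resident-like cells and 60.2%, 61.5%, 38.4% and 42.1% of other C1q macrophages. Resident-like cells were deeper, so this number was easier to reach in them. After thinning, Selenop was found in 69.0%, 81.5%, 54.4% and 50.2% of resident-like cells. In other C1q macrophages it was found in 30.0%, 50.6%, 27.5% and 22.5%, and Stab1 and F13a1 were also found less often there. Chosen by these genes in place of the 3 of the rule, cells were 36.5%, 40.0%, 11.8% and 15.3% of barcodes and 81.0%, 78.3%, 49.4% and 45.9% of C1q macrophages. The controls were again above both LNP-Sirpa libraries, by 2.82 times in the mean share of barcodes and 1.67 times among C1q macrophages. With the 3 genes of the rule these were 6.40 and 3.56 times, so the difference was smaller here. Other markers of resident macrophages were sparse. After thinning, the hyaluronan receptor gene Lyve1 was found in 5.15%, 4.35%, 2.36% and 0.395% of resident-like cells, the haemoglobin scavenger receptor gene Cd163 in 3.99%, 2.60%, 1.38% and 0.791%, and Timd4, a receptor for phosphatidylserine, in at most 0.196% in any library. Other C1q macrophages held Lyve1 in 0.932%, 0.351%, 0.297% and 0% and Cd163 in 1.28%, 0.651%, 0.223% and 0.0433%. They held Timd4 in 0.583%, 0.251%, 0.743% and 0.130%, above resident-like cells in every library. Most resident-like cells thus carried the 3 markers outside the rule, as did many other C1q macrophages, and few carried Lyve1, Cd163 or Timd4.

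Several secreted and receptor genes set resident-like cells apart from other C1q macrophages in all 4 libraries. These differences describe the choice of cells, with no test, on the scale log2((CPM + 10)/(CPM + 10)) averaged over libraries. The chemokine genes Ccl8 and Ccl12 were among the highest, with Ccl8 at 521, 1647, 2646 and 2729 CPM in resident-like and 128, 459.5, 972 and 401 CPM in other C1q macrophages (mean difference 1.98). Ccl12 followed at 1.55. Gas6, a bridging molecule by which phagocytes bind dying cells, differed by 1.60, with 144, 128, 86.5 and 49.1 CPM against 35.3, 38.5, 24.5 and 8.83 CPM. Of the marker genes outside the rule, F13a1 differed by 1.52, Selenop by 1.34 and Stab1 by 1.24.

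The rest of the 15 most enriched genes held growth factor, complement and transcription factor genes. Complement C4b differed by 1.46, Fcgrt, the receptor that recycles IgG, by 1.31, Ms4a7 by 1.29, the growth factor Igf1 by 1.27 and the transcription factor Maf by 1.26. Syngr1, Nxpe5, the lectin Fcna and the ribonuclease Rnase4 lay between 1.20 and 1.26. Maf stood at 625, 641, 579.6 and 354 CPM in resident-like cells and at 209, 247, 293 and 148 CPM in the others, with the lowest value of each in LNP-Sirpa replicate 2.

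On the other side, Ccl17, a chemokine of dendritic-like cells, was 69.4, 47.7, 27.3 and 8.52 CPM in resident-like cells and 369, 220.2, 310.4 and 43.2 CPM in the others (mean difference -2.22). Dcstamp, which takes part in cell fusion, the cystine transporter gene Slc7a11 and the elastase gene Mmp12 differed by -1.76, -1.54 and -1.47. Genes of other cells were also on this side: the mast cell proteases Cma1, Mcpt2, Mcpt4 and Tpsb2 (from -1.94 to -1.80), Ly6c1 (-1.75) and the fibroblast gene Dcn (-1.71). In LNP-Sirpa replicate 2 these proteases, at 0 to 1.77 CPM, differed by only -0.126 to -0.0157. Summed levels of 7 mast cell or basophil markers were 1159.7, 185, 314 and 2.81 CPM in other C1q macrophages and 77.2, 14.3, 99.1 and 1.31 CPM in resident-like cells. Summed levels of 7 fibroblast markers were 1927, 919.9, 462 and 109 CPM against 352, 239, 203 and 69.8 CPM.

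Sirpa RNA did not pass the test between treatments in resident-like cells. It stood at 587, 584, 498 and 384 CPM, both LNP-Sirpa libraries lying below both controls, with a log2 fold change of LNP-Sirpa over control of -0.30 ± 0.19 (SE, n = 2 libraries per group; edgeR, adjusted p = 0.540). Cd47, its ligand, stood at 172, 171, 339.9 and 229 CPM, with the LNP-Sirpa libraries above the controls (0.83 ± 0.18, adjusted p = 0.0990 by edgeR). Cd47 passed after thinning (adjusted p = 0.0314 by edgeR) and with DESeq2 (0.00547), and gave 0.99 with LNP-Sirpa replicate 2 left out. A fit with 1 library left out has 1 library in a group. Its p-value, here and below, does not measure the spread in that group. The 3 markers outside the rule gave Selenop at 555, 801, 325 and 252 CPM (-1.14 ± 0.24, adjusted p = 0.0906), Stab1 at 727, 670.0, 466 and 299 CPM (-0.77 ± 0.22, adjusted p = 0.168) and F13a1 at 739.5, 597, 358 and 282 CPM (-0.96 ± 0.20, adjusted p = 0.0859). All 3 were lower in both LNP-Sirpa libraries and none passed with edgeR, while DESeq2 gave adjusted p = 9.42e-04, 0.0231 and 2.67e-04. Without control replicate 1 Selenop gave -1.41. Without LNP-Sirpa replicate 1 Stab1 gave -1.01 and F13a1 -1.03, and without LNP-Sirpa replicate 2 F13a1 gave -0.89. The labels describe degradation of SIRPα, so these RNA levels bear on the transcript and not on the protein.

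Within resident-like cells, 98 of 12937 genes tested changed between treatments, 79 higher and 19 lower in LNP-Sirpa (edgeR, adjusted p below 0.05). That is 0.758% of the genes tested, 0.611% higher and 0.147% lower. Of these, 55 share the adjusted p of 0.0473, just under the threshold. Libraries of the 2 groups did not overlap for 45.2% of all genes tested, so a lack of overlap alone is common here.

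Among type I interferon response genes, which restrain viral replication or sense nucleic acids, 12 of 25 tested rose and none fell. Their median log2 fold change was 2.49, against -0.01 over all genes tested. All 25 were above 0, against 6343 of all 12937 genes tested. Rsad2, which encodes the antiviral enzyme viperin, was 55.3, 55.6, 514 and 287 CPM (2.94 ± 0.24, adjusted p = 0.00948). Ifit2, which binds viral RNA, was 13.3, 19.2, 219 and 83.9 CPM (3.29 ± 0.43, adjusted p = 0.0473). Oasl1, of the oligoadenylate synthetase-like family, was 30.0, 37.5, 418 and 174 CPM (3.21 ± 0.38, adjusted p = 0.0462). In each of these genes LNP-Sirpa replicate 1 was the highest library and both controls lay close together.

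Ifit1 (21.8, 22.4, 209 and 83.2 CPM), the transcription factor Irf7 (31.2, 27.5, 264 and 106 CPM) and the nucleic acid sensor Zbp1 (49.9, 56.6, 301 and 162 CPM) rose by 2.81 ± 0.36, 2.74 ± 0.36 and 2.21 ± 0.25 (edgeR, adjusted p from 0.0232 to 0.0473). Cmpk2 rose by 3.54 ± 0.34 and Ifi205 by 2.57 ± 0.33 from levels under 10 CPM in both controls (adjusted p = 0.0232 and 0.0462). Isg15, a ubiquitin-like modifier named here after its values were seen, was 121, 141, 1459.8 and 456 CPM and did not pass (2.93 ± 0.49, adjusted p = 0.0688). With 1 library left out its log2 fold change ran from 2.01 to 3.48. The Ifit, Oasl, Ifi200 and Gbp families hold closely related members between which the counting could split reads, so single members are uncertain.

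Interferon gamma response genes gave 11 of 23 tested higher and none lower, with a median of 1.63. Cxcl10, a chemokine for activated T cells, was 133, 173, 507 and 450.2 CPM (1.75 ± 0.21, adjusted p = 0.0232 by edgeR). Gbp2, a guanylate-binding protein, was 93.8, 163, 564 and 408 CPM (2.01 ± 0.30, adjusted p = 0.0473), and lost the call when LNP-Sirpa replicate 1 (1.86, adjusted p = 0.210) or replicate 2 (2.13, adjusted p = 0.157) was left out. Socs1, an inhibitor of cytokine signalling, rose by 1.95 ± 0.24 from under 4 CPM (adjusted p = 0.0245). Cxcl9, named after its values were seen, was 199.8, 917, 2815 and 1949 CPM. Its controls differed more than 4-fold and it did not pass (2.17 ± 0.70, adjusted p = 0.261), and it gave 3.71 without control replicate 2.

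Promoter stretches are shown for the named interferon genes that hold an ISRE-like match, the kind of element through which interferon-activated factors bind DNA. GAAA, 2 bases of any kind and GAAA again were searched on both strands in the 250 bases before the start site. It was found in 6 of 10 named interferon genes that had passed the test and had an entry in the RefSeq promoter table (GRCm38.p6), and in 2.98% of its 32851 promoters. Isg15 and Cxcl9, which did not pass, were not searched. The GAS-like TTCNNNGAA, which reads the same on both strands, was found in 1 of the 10, Ifit2, and in 7.02% of all promoters. Sequences are 5′ to 3′ on the strand of the gene, with ISRE-like matches in capitals and 25 bases on either side. Matches on the opposite strand appear as TTTC, 2 bases and TTTC, and in Socs1 there are 2 overlapping matches. They lie at chr5:92349068-92349127 (Cxcl10, minus strand), chr3:142620579-142620638 (Gbp2, plus), chr1:174031855-174031914 (Ifi205, minus), chr19:34640760-34640838 (Ifit1, plus), chr12:26456538-26456597 (Rsad2, minus) and chr16:10785579-10785644 (Socs1, minus).
Cxcl10: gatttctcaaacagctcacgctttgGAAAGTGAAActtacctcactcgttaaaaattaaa
Gbp2: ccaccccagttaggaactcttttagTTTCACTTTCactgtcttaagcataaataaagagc
Ifi205: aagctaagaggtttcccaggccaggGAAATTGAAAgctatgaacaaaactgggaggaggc
Ifit1: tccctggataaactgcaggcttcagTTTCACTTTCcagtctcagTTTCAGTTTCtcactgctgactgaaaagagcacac
Rsad2: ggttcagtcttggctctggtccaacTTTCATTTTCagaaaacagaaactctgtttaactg
Socs1: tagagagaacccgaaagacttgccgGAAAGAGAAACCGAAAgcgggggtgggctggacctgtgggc
Ifit1 and Socs1 hold 2 matches each and the other 4 genes hold 1. A match is a description of the letters, and no binding was measured.

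Ly6a, a surface protein of the Ly6 family induced by interferon, was the most abundant of the 10 largest rises. It was 99.2, 153, 1345 and 1117 CPM (3.38 ± 0.29, adjusted p = 0.00948 by edgeR), and both LNP-Sirpa libraries lay far above the controls. T cells carried Ly6a too, with a UMI in 63.9%, 41.3%, 84.3% and 82.7% after thinning, against 12.2%, 18.7%, 82.9% and 86.6% of resident-like cells. In the controls the share in T cells was thus the higher, and the part that RNA from other cells had in the rise was not tested. Slfn1, of the Schlafen family, was 14.5, 19.2, 177 and 71.1 CPM (2.96 ± 0.39, adjusted p = 0.0473). AA467197, which encodes a small mitochondrial protein, was 145, 129, 540.5 and 715 CPM (2.32 ± 0.24, adjusted p = 0.0232) and, unlike the interferon genes named above, was highest in LNP-Sirpa replicate 2.

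**Figure D4:**
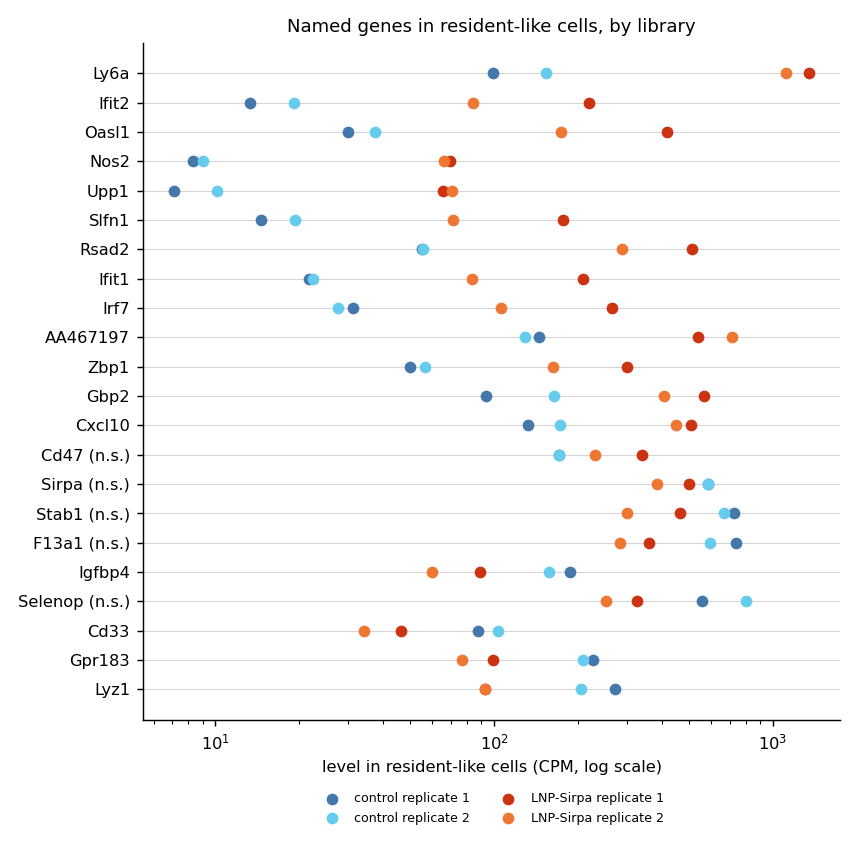
Level of named genes in resident-like cells (horizontal axis, CPM, log scale) in each of 4 libraries, ordered by log2 fold change; n.s. marks genes with an edgeR adjusted p of 0.05 or more. The LNP-Sirpa libraries lie above the controls for the 13 genes from Ly6a to Cxcl10 and below them for Igfbp4, Cd33, Gpr183 and Lyz1.

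Genes of inflammatory macrophages and arginine use rose in few members. Nos2, the inducible nitric oxide synthase, had the smallest edgeR p between treatments in resident-like cells, with 8.32, 9.01, 69.4 and 66.2 CPM (3.07 ± 0.17, adjusted p = 0.00136 by edgeR). Acod1, which makes itaconate, was 64.6, 112, 331 and 299.8 CPM (1.94 ± 0.28, adjusted p = 0.0473), and Cxcl3, a chemokine for neutrophils, rose by 1.44 ± 0.23 from under 6 CPM. These 3 were the members of 16 tested that rose in the inflammatory list, whose median was 0.48 and ran from 0.00327 to 0.90 over the alternatives. Acod1 lost the call when LNP-Sirpa replicate 1 (1.96, adjusted p = 0.198) or replicate 2 (1.90, adjusted p = 0.182) was left out, and Cxcl3 with the former left out (1.48, adjusted p = 0.0552). With Nos2, Ass1, which rebuilds arginine from citrulline, rose among 13 arginine and glutathione genes (19.8, 13.8, 51.2 and 61.6 CPM, 1.87 ± 0.23, adjusted p = 0.0235). Arg1, the arginase, named after its values were seen, was 1109, 1263, 2277 and 5846 CPM and did not pass (1.93 ± 0.50, adjusted p = 0.166). It moved with 1 library, giving 2.51 without LNP-Sirpa replicate 1 and 0.94 without LNP-Sirpa replicate 2. Neutrophil markers were also higher in these cells, with 8 markers summing to 51.1, 81.9, 157 and 165 CPM. Their part in these rises was not tested beyond leaving out some cells. Those left out held more than 2 UMIs of Cd3d, Cd3e, Cd3g, Ncr1, Cd79a and S100a8 together, with S100a8 the only neutrophil gene. Among the cells kept, Cxcl3 did not pass (1.32, adjusted p = 0.0648 by edgeR).

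Antigen presentation genes gave 1 call. H2-T23, a non-classical MHC class I gene, was 18.4, 20.9, 91.8 and 56.0 CPM (2.01 ± 0.20, adjusted p = 0.0232 by edgeR) and was the 1 of 19 class I presentation genes that rose. All 19 log2 fold changes were above 0, against 6343 of all 12937 genes tested, with a median of 0.85. None of 12 class II presentation genes passed (median 0.21, from -0.24 to 0.70 over the alternatives). The most abundant were Cd74, the invariant chain, at 4014, 7997, 7469 and 6022 CPM, and the protease gene Ctss at 2082, 2991, 2881 and 3649 CPM. For Cd74 the control libraries enclosed the LNP-Sirpa ones.

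Scavenger receptors and the programmes of resident macrophages held few calls. Of 24 scavenger and endocytic receptor genes tested, Ltc4s, which makes leukotriene C4 and so is an enzyme in this list, was the 1 that fell, with 43.9, 46.4, 15.4 and 13.1 CPM (-1.55 ± 0.17, adjusted p = 0.0232 by edgeR). None rose, and the median was -0.31, with 4 of 24 above 0, against 6343 of all 12937 genes tested. The list also holds Stab1, Selenop and F13a1, given above, and of these Selenop and F13a1 encode no receptor. Mrc1, the mannose receptor, named after its values were seen, stood at 682, 647, 591 and 427 CPM and did not pass (-0.28 ± 0.20, adjusted p = 0.594). No gene passed among 20 resident macrophage transcription factors (median -0.05), 21 efferocytosis genes (-0.11), 16 complement genes (0.11), 17 iron and haem genes (0.00), 16 selenoprotein genes (0.16) or 22 lipid-associated macrophage genes (0.21). The most abundant transcription factor gene, Klf4, was 876, 1057, 541 and 938 CPM, and Zeb2 was 598, 673, 711 and 588 CPM. Apoe, the lipid carrier, was 4874, 10689, 8956 and 7394 CPM, and Fth1, the ferritin heavy chain, 9468, 12494, 10942 and 15892 CPM, so for both the groups overlapped.

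Receptors for growth signals and antibody gave no call with edgeR on all libraries. Csf1r, the receptor that sustains macrophages, was 669, 716, 449 and 354 CPM (-0.68 ± 0.19, adjusted p = 0.173 by edgeR), and Cx3cr1, the fractalkine receptor, 348, 361, 210.5 and 154 CPM (-0.86 ± 0.18, adjusted p = 0.0863), both without overlap. Cx3cr1 passed after thinning (adjusted p = 0.0440 by edgeR), and gave -0.997 with LNP-Sirpa replicate 1 left out. DESeq2 called both Csf1r (adjusted p = 0.0215) and Cx3cr1 (0.00232). None of 11 genes of the CSF1 receptor list (median -0.27) and none of 7 Fc receptor genes (0.19) passed. The common chain Fcer1g was 3784, 3929.7, 3881 and 4229 CPM and Fcgr3 624, 730.0, 737 and 734 CPM. Among 17 inhibitory phagocyte receptor genes, Siglece, which binds sialic acid, was the 1 that passed, with 36.1, 32.6, 16.8 and 10.8 CPM (-1.19 ± 0.19, adjusted p = 0.0473).

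The remaining lists held single members past the threshold. Pdcd1lg2, a PD-1 ligand, rose by 2.21 ± 0.30 (4.57, 5.76, 29.7 and 14.4 CPM, adjusted p = 0.0421 by edgeR) and was the 1 of 16 alternative activation genes called. The collagenase Mmp13 rose by 1.45 ± 0.15 (19.4, 18.0, 49.7 and 44.9 CPM, adjusted p = 0.0232) and Igfbp4 fell among 25 growth factor and matrix genes. Hif1a, the hypoxia factor, rose by 1.00 ± 0.15 (50.2, 51.4, 105 and 83.2 CPM, adjusted p = 0.0473) as the 1 of 22 glycolysis and hypoxia genes, and missed the threshold with control replicate 1 left out (0.94, adjusted p = 0.0587). Cxcl10 and Cxcl3 were the 2 of 20 chemokine genes that rose (median 0.37). None of 18 genes induced by tissue dissociation passed (median -0.09), with Fos at 1975, 2401, 1302 and 2212 CPM.

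**Figure D5:**
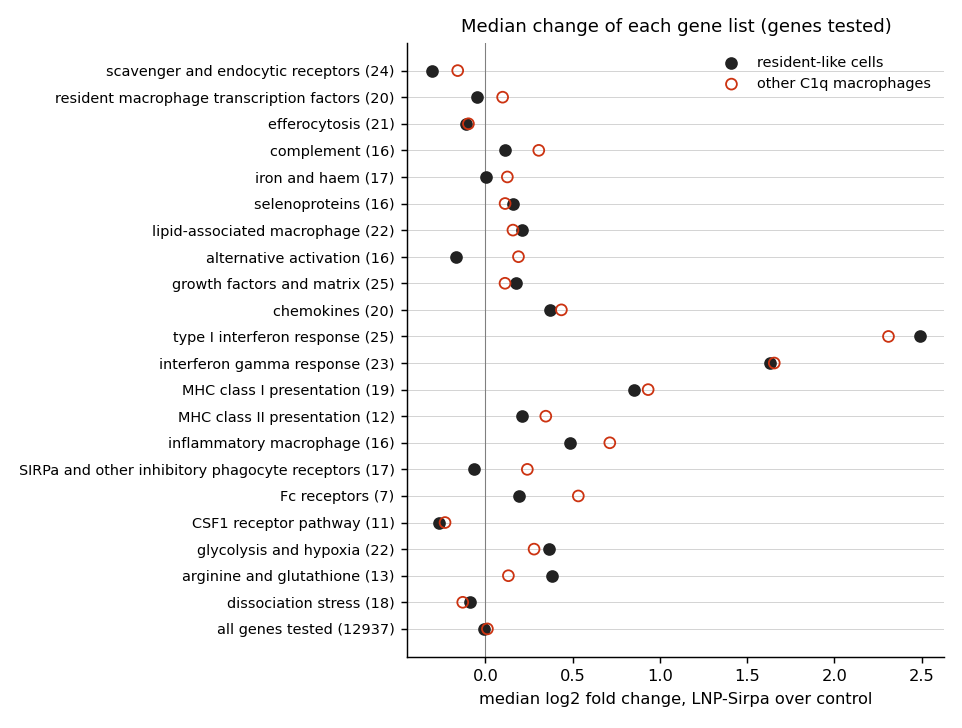
Median log2 fold change of LNP-Sirpa over control (horizontal axis) of each gene list in resident-like cells (filled) and in other C1q macrophages (open), over the genes tested in resident-like cells (number in brackets). The 2 interferon lists lie farthest from 0, at 2.49 and 1.63 in resident-like cells and 2.31 and 1.66 in the others.

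Falls were fewer, and 4 of them reached the mean of 50 CPM set for naming. Lyz1, a lysozyme whose sequence is close to that of Lyz2, was 271, 204, 92.6 and 93.1 CPM (-1.24 ± 0.18, adjusted p = 0.0473 by edgeR). Gpr183, which senses oxysterols, was 226, 209, 99.1 and 76.7 CPM (-1.20 ± 0.16, adjusted p = 0.0328). The sialic acid receptor Cd33 was 87.6, 103, 46.3 and 34.1 CPM (-1.14 ± 0.18, adjusted p = 0.0473) and Igfbp4, which binds insulin-like growth factors, 187, 158, 89.0 and 60.0 CPM (-1.10 ± 0.18, adjusted p = 0.0473). In all 4 genes both LNP-Sirpa libraries lay below both controls. The B cell genes Cd79b and Bank1, named after their values were seen, also fell, by 1.71 ± 0.28 and 1.89 ± 0.30 on the log2 scale, from levels of 10.2 to 17.7 CPM in the controls. The 7 B or plasma cell markers summed to 17.3, 19.5, 5.14 and 3.93 CPM in these cells. Among cells kept by the limit on UMIs of Cd3d, Cd3e, Cd3g, Ncr1, Cd79a and S100a8, Bank1 did not pass (-1.61, adjusted p = 0.0734), while Cd79b still passed. Cd79a is the only B cell gene in that limit, so cells with other B cell RNA could remain. Cd79b did not pass without LNP-Sirpa replicate 1 (-1.65, adjusted p = 0.0759).

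These calls depended on how the cells were chosen. When cells were chosen by Selenop, Stab1 and F13a1, edgeR called 0 of 13973 genes, with 2016 at an unadjusted p under 0.05, although all 98 genes kept their direction. Adjusted p-values of the named genes that had passed then ranged from 0.0607 to 0.201. With at least 2 UMIs of the 3 rule genes 18 genes passed, and without the gate on Ly6c2 and Plac8, which had removed 3.40%, 2.42%, 11.0% and 4.69% of otherwise qualifying cells, 36 passed.

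Other C1q macrophages gave 0 changed genes of 14001 with edgeR (0.0%), 1852 at an unadjusted p under 0.05 and 491 with DESeq2. So a call in 1 population and not in the other does not show a difference, and the difference of effects was tested with the library as a block. It passed for 36 of 14548 genes (0.247%), 26 with a higher effect in resident-like cells (0.179%) and 10 with a lower one (0.0687%). None of these were in the type I or interferon gamma lists. In simulated counts with a spread set in advance, this test called 12.4% of genes given a log2 difference of 1, and 73% at 2. A gene without a call can therefore still differ between the populations. The interferon medians were close, at 2.49 in resident-like and 2.31 in other C1q macrophages for type I, and at 1.63 and 1.66 for interferon gamma.

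The chemokine gene Ccl4 and the costimulatory gene Cd86 differed in the lower direction. Ccl4 was 1521, 1481, 1287 and 1642 CPM in resident-like cells and 869, 979.5, 1496 and 1531 CPM in other C1q macrophages, a difference of effects of -0.79 ± 0.12 (log2, edgeR adjusted p = 0.00624). It was thus above the other macrophages in both controls but not in LNP-Sirpa replicate 1. Cd86 was 425, 534, 454 and 329 CPM against 439, 636, 735 and 562 CPM (-0.61 ± 0.12, adjusted p = 0.0479). Atp8a1, a phospholipid flippase, and Tbc1d5, of the retromer pathway, gave -0.72 ± 0.14 each (adjusted p = 0.0343 and 0.0424). Cd86, Atp8a1 and Tbc1d5 lost the call without LNP-Sirpa replicate 1 or 2, and Atp8a1 and Cd86 also without control replicate 1. In these fits their differences ran from -0.85 to -0.51.

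In the higher direction, Upp1, which cleaves uridine, was 7.12, 10.2, 65.3 and 70.4 CPM in resident-like cells and 27.2, 30.3, 109 and 130.5 CPM in the others (0.89 ± 0.16, adjusted p = 0.0254 by edgeR). Leaving out control replicate 1 gave an adjusted p of 0.0618, and leaving out either LNP-Sirpa library gave 0.110 and 0.0731. Among genes with a mean of at least 50 CPM over both populations, the other 4 of the 5 largest were the mast cell proteases Mcpt2 (3.53 ± 0.21), Cma1 (2.74 ± 0.19), Mcpt4 (2.44 ± 0.22) and Tpsb2 (2.03 ± 0.18), with adjusted p from 3.39e-08 to 8.68e-06. In resident-like cells Tpsb2 was 40.5, 6.47, 58.0 and 0.655 CPM, so the libraries of a group differed more than the groups. The mast cell or basophil markers given above move with these differences, and their part was not tested. None of the 4 passed without LNP-Sirpa replicate 1, where Mcpt4 turned to -1.75. Against cells with 0 UMIs of the 3 genes, Cma1, Mcpt4 and Tpsb2 also lost the call (adjusted p = 0.593, 0.427 and 0.618). After thinning, Upp1, Atp8a1, Tbc1d5 and Cd86 did not pass either (adjusted p from 0.0682 to 0.257).

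Lipid-associated and matrix genes named after their values were seen also differed, some by more than Upp1 but at a mean below 50 CPM. Gpnmb (1.40), Atp6v0d2 (1.09) and Mmp12 (0.80) were the 3 lipid-associated genes with a higher effect in resident-like cells, and Mmp12, Timp1 (1.22) and Timp2 (0.89) the 3 of the growth factor and matrix list. Timp2, an inhibitor of metalloproteinases, was 508, 508, 536 and 502 CPM in resident-like cells and 395, 315, 242 and 150.3 CPM in other C1q macrophages, so the LNP-Sirpa libraries were lower in the latter. Gpnmb was 13.6, 31.6, 30.5 and 43.6 CPM against 19.4, 42.2, 13.4 and 25.1 CPM. Without LNP-Sirpa replicate 2, Atp6v0d2, Mmp12, Timp1 and Timp2 did not pass (adjusted p from 0.0682 to 0.231), nor did Atp6v0d2 without LNP-Sirpa replicate 1 (0.0668). After thinning, Timp1 dropped to 0.38 (adjusted p = 0.852) and Atp6v0d2 did not pass (0.113). Timp2 was lost with DESeq2 size factors (adjusted p = 0.125) and against cells with 0 UMIs of the 3 genes (0.175).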

How the data were processed

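Single-cell libraries of CD45+ cells were made with a DNBelab C Series kit, per the labels' protocols. STAR 2.5.1b and the build GRCm39 are named in the submitters' processing notes. Each deposited file holds UMI counts, whole numbers for each pair of gene and cell, and PISA 1.0 is named in the file headers. For annotation, cell calling and doublet removal the sources used here give nothing, and no doublets were removed here beyond the gates on Cd3, cycling and monocyte genes. Cell names are serial numbers, and 830 to 1242 were shared by each pair of libraries, so shared names do not show shared barcodes. The 4 oligo libraries were not analysed here.

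The members and gene lists were chosen with earlier results of these data known. Libraries held 68654004, 90789729, 85810250 and 70581678 UMIs, of which resident-like cells held 18387943, 22410532, 5054922 and 3051974. Counts were summed per library and population and tested by the quasi-likelihood F test of edgeR 4.0.16 (R 4.3.3), with TMM factors, filterByExpr and robust fitting, adjusted by Benjamini-Hochberg over all genes tested (threshold 0.05). The 14 genes of the rule were not tested. A gene that the rule for naming also picked is not reported here. The difference of effects was tested as the interaction of population and treatment over 8 sums with the library as a block. Genes named were the 10 largest rises and falls with a mean of at least 50 CPM, up to 4 members per list past the threshold or the most abundant where none passed, the 15 genes most above and 10 most below other C1q macrophages and the 5 largest differences of effect each way with a mean of at least 50 CPM over both populations. Predicted, ribosomal and mitochondrial genes were left out. Other settings tried were the Wald test of DESeq2 1.42.0, edgeR with DESeq2 factors, every gene kept, each library left out, the replicate block, a cell filter (500 UMIs, 300 genes, 15% mitochondrial), other thresholds of the rule, thinning to 3000 UMIs and, added after the data were seen, cells chosen by Selenop, Stab1 and F13a1 and DESeq2 in other C1q macrophages. The scripts were tested on simulated data with a spread set in advance. There the test within resident-like cells called 40.2% of genes given a log2 change of 1 and 89.1% at 2, so lists without a call can hold changed genes. Python 3.11.15 with numpy 2.4.6, pandas 2.3.3, scipy 1.17.1 and matplotlib 3.10.9 was used.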

Additional observations from a re-analysis of the deposited data

Results flagged for a closer look

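The effect of treatment differed between resident-like and other C1q macrophages, by a test of the difference itself in edgeR, for 15 genes named here. It was higher in resident-like cells for Mcpt2 (3.53), Cma1 (2.74), Mcpt4 (2.44), Tpsb2 (2.03), Gpnmb (1.40), Timp1 (1.22), Atp6v0d2 (1.09), Upp1 (0.89), Timp2 (0.89), Mmp12 (0.80) and AA467197 (0.65), all as differences of log2 fold change. It was lower for Ccl4 (-0.79), Tbc1d5 (-0.72), Atp8a1 (-0.72) and Cd86 (-0.61). The mast cell proteases Mcpt2, Cma1, Mcpt4 and Tpsb2 stood between 0 and 1.77 CPM in both populations of LNP-Sirpa replicate 2. None of these proteases passed without LNP-Sirpa replicate 1, where Mcpt4 turned to -1.75. AA467197 was 405, 344, 976 and 1155 CPM in other C1q macrophages, above resident-like cells in every library, and its difference did not pass without LNP-Sirpa replicate 2 (0.60, adjusted p = 0.0735). Levels of Ccl4, Cd86, Upp1, Timp2 and Gpnmb in both populations, and other settings that ended calls, stand with the comparison above. No cause was tested.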

How the results depend on the processing

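The share of resident-like cells was lower in LNP-Sirpa under all 6 other settings and without each library, by 17.2 to 26.1 percentage points of barcodes. The count of 98 changed genes was 335 with DESeq2, 881 with no filter on low counts, 245 with the replicate number as a block, 199 after thinning, 36 without the Ly6c2 and Plac8 gate, 18 with at least 2 UMIs and 0 with cells chosen by Selenop, Stab1 and F13a1, and from 275 to 421 with 1 library left out. With 1 library left out a group holds 1 library, so those counts, here and for the difference of effects, do not measure stability. All genes of the 98 that were tested kept their direction under each of the 15 alternatives. The replicate numbers did not pair the libraries (r = 0.0639 between deviations of same-numbered libraries over 5540 genes), so the block is a check only. It left Ifit2 and Slfn1 short of the threshold (adjusted p = 0.0688 and 0.0539). Of 31 named genes that had passed, thinning ended 3, Ifit2 (0.0611), Socs1 (0.0584) and Siglece (0.0805). The limit on UMIs of Cd3d, Cd3e, Cd3g, Ncr1, Cd79a and S100a8 ended 4, Cxcl3, Bank1, Igfbp4 (0.0541) and Siglece (0.0584). At least 5 UMIs ended 10, among them Ifit1 (0.0909), Ifit2 (0.0566) and Oasl1 (0.0563), at least 2 UMIs ended 24, and no Ly6c2 and Plac8 gate ended 16. List medians moved too: the type I interferon list ran from 1.71 to 2.94 and the interferon gamma list from 1.41 to 1.94, while the sign turned under 7 alternatives for iron and haem, 4 for resident transcription factors, 2 each for inhibitory receptors and dissociation stress, and 1 each for MHC class II, alternative activation and the CSF1 receptor list. Other C1q macrophages gave 491 genes with DESeq2. The difference of effects gave 252 genes with no filter, 61 against cells with 0 UMIs of the 3 genes, and from 11 to 268 with 1 library left out. Splits of higher against lower calls moved too: 80.6% of the 98 were higher, 62.1% with no filter.

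Signs turned for Mcpt4 in the difference of effects without LNP-Sirpa replicate 1 (-1.75, against up to 2.51 without another library), and for genes that had not passed: Apoe with cells chosen by Selenop, Stab1 and F13a1 (-0.0245), and with 1 library left out Apoe (-0.32 to 0.88), Cd74 (-0.18 to 0.89), Fos (-0.75 to 0.22), Klf4 (-0.84 to 0.16), Fth1 (-0.00616 to 0.74), Ftl1 (-0.26 to 0.45) and Gpx1 (-0.20 to 0.45). The cause was not tested. LNP-Sirpa replicate 2 held 264 resident-like cells and 3051974 UMIs in them, which limits genes of low level.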
